A study of Homo sapiens with 12 samples.

Results

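Isolated shared FoxK1 sites are regions of the genome where a FoxK1 peak was found in all 6 peak lists of the study and where no other such region lay within 200 kb on either side. They were chosen by the position of the peaks and by their presence in every list. Peaks of the 6 lists that shared at least 1 bp were merged, and 15684 merged regions on chromosomes 1 to 22 held a peak of every list (shared regions). Of these, 840 (5.36%) met the distance rule, out of 68127 merged regions in all, and the other 14844 shared regions served for comparison. The lists came from chromatin immunoprecipitation with an antibody to FoxK1 in HepG2, an established human hepatocellular carcinoma line. Its cells had been without serum for 16 h, and were then given 100 nM insulin for 20 min (3 libraries) or left untreated (3 libraries). Nothing in the labels says that libraries of a treatment came from separate cultures, so p-values measure the spread between these libraries only. The number, spacing and presence of the sites follow from the rule and are given as a description.

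FoxK1 is a forkhead transcription factor, which grips DNA through a winged-helix domain, and it is best known as a repressor that works with the Sin3 corepressor. In liver cells insulin signalling, acting through AKT and mTOR, moves FoxK1 into the nucleus, the opposite of its effect on the related FoxO proteins. Its known targets include genes of autophagy, glycolysis and mitochondrial metabolism. A binding site far from any other can lie in a stretch with few genes, but no gene annotation or genome sequence of build hg19, the build of these peaks, was used here. The sites are therefore given by position, without gene names, promoter classes or sequence motifs.

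The 840 isolated sites were spread over all 22 autosomes, from 84 on chromosome 2 to 9 on chromosome 21. Chromosome 5 held 80, chromosome 6 held 72 and chromosome 4 held 61. As a share of a chromosome's shared regions, isolated sites were most common on chromosome 5 (11.4%), chromosome 13 (10.6%) and chromosome 4 (10.5%). They were least common on chromosomes 16 and 19 (1.45% on each) and 17 (1.56%). The median chromosome had 5.99%. Low shares went with many shared regions per Mb, 12.9 on chromosome 19 and 12.7 on chromosome 17 against 3.06 on chromosome 4. The order was not strict, since chromosome 16 had 9.20 per Mb and chromosome 22, with a share of 2.74%, had 11.1. The distance rule makes isolated sites rarer where shared regions are dense, and its part in these shares was not tested. Per 100 Mb, isolated sites numbered 44.3 on chromosome 5 and 44.1 on chromosome 15, and 13.3 on chromosome 16, the lowest.

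**Figure D1:**
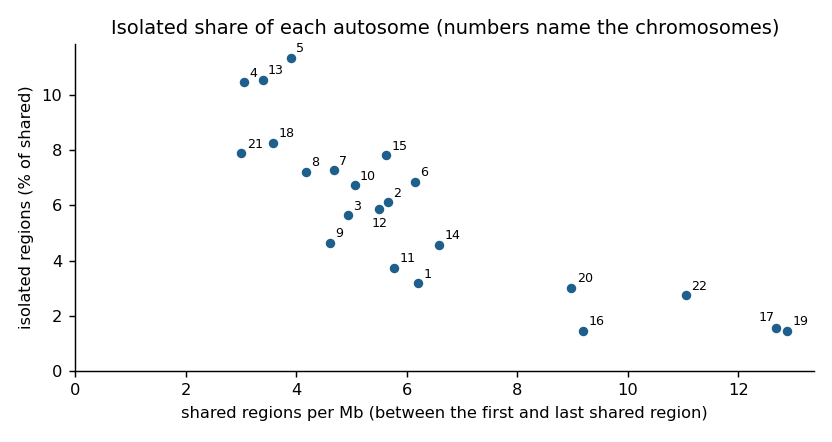
Share of shared regions that are isolated (%, vertical axis) against the number of shared regions per Mb between the first and last shared region of the chromosome (horizontal axis), 1 point per autosome. Chromosomes 4, 5 and 13 lie at the top left, above 10%, and chromosomes 16, 17 and 19, with the lowest shares, lie at the bottom right.

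The smaller of a site's gaps to its neighbours had a median of 343 kb among isolated sites and of 20.0 kb among all shared regions. It exceeded 500 kb at 248 sites and 1000 kb at 65. The larger gap had a median of 850 kb. Isolated sites often followed one another, since 457 of them (54.4%) had another isolated site as the next shared region on at least one side, and 107 stood between isolated sites on both sides. The longest run was 9 isolated sites in a row on chromosome 6, from 64756341 to 73124038, a span of 8.37 Mb. A site at the end of a chromosome's series of shared regions has a neighbour on one side only, and 8 of the 840 were of this kind.

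**Figure D2:**
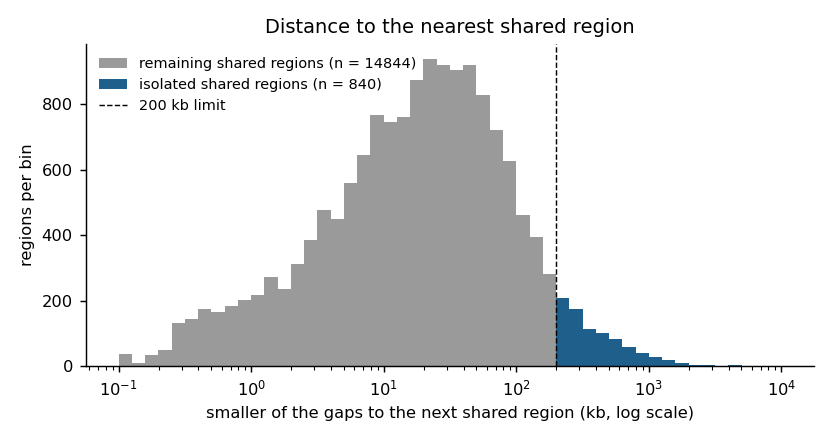
Number of shared regions (vertical axis) by the smaller of the gaps to the next shared region (kb, log scale, gaps under 0.1 kb drawn in the first bin). The isolated sites, in blue, are the right-hand tail beyond the dashed line at 200 kb, and the tail continues the remaining regions, in grey, with no break at the limit.

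The 3 sites just inside the limit had smaller gaps of 200.489 kb (chromosome 2, 71558635 to 71559805), 200.956 kb (chromosome 3, 121264099 to 121266440) and 201.399 kb (chromosome 20, 51049769 to 51050898). The 3 just outside had 199.793 kb (chromosome 2, 139039502 to 139040106), 199.749 kb (chromosome 1, 244613871 to 244615830) and 199.594 kb (chromosome 6, 159420513 to 159421536). Strength is given here as the percentile of a peak's −log10 q among all peaks of its own list, so that 100 is the strongest. The mean over the 6 lists was 68.5, 76.7 and 51.8 for the 3 sites inside and 85.3, 72.4 and 82.8 for those outside.

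Isolation was relative to the shared regions, not to every peak. Within 200 kb, 779 of the 840 sites had at least 1 region called in fewer than 6 lists, with a median of 5 such regions against 16 around the remaining shared regions. The nearest region of any kind lay at a median of 12.9 kb, and within 10 kb at 365 sites (43.5%). In 434 cases (51.7%) that nearest region had been called in a single list, against 30.1% for the remaining shared regions. The distance rule bars a shared region within 200 kb of an isolated site, whereas for 26.9% of the remaining shared regions the nearest region was a shared one. Over all nearest regions, the median mean percentile was 21.2 for isolated sites and 33.6 for the remaining shared regions. No region called in fewer than 6 lists lay within 200 kb of 61 sites (7.26%), which thus had no other region of any list there, and of 19 (0.128%) of the remaining shared regions.

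The most isolated site by its smaller gap was chromosome 21, 9831571 to 9834238, which is the first shared region of that chromosome and lay 5921 kb from the second. It was unevenly ranked, with percentiles among all shared regions of 14.2, 3.14 and 57.1 in insulin replicates 1, 2 and 3 and of 9.92, 5.94 and 71.4 in the untreated replicates. Both replicate 3 lists therefore placed it far above the other 4 lists. Next came chromosome 9, 66457933 to 66459037, with gaps of 27837 and 4888 kb, and its larger gap contains the longest stretch of the chromosome without a peak of any list. Folds there (enrichment of the summit over local background, as the authors' peak caller gave it) lay between 5.63 and 12.6. Chromosome 5, 21459190 to 21460038, had gaps of 4700 and 6012 kb and folds between 5.96 and 11.9. At chromosome 11, 89955631 to 89956806, gaps were 3206 and 2973 kb and folds 3.65 to 10.04. Gaps were counted with no allowance for stretches of the genome where peaks cannot be called, so they do not measure an absence of binding.

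Neighbouring sites on chromosome 13, at 64649556 to 64650461 and 68954313 to 68955079, were separated by 4304 kb with no shared region between them. The first had folds between 6.61 and 12.4, and the second between 4.21 and 9.57. The strongest of the 10 most isolated sites was chromosome 21, 27106437 to 27108841, with gaps of 8191 and 2520 kb. Its folds were 30.5, 30.9 and 14.8 in insulin replicates 1, 2 and 3 and 19.0, 14.2 and 12.6 in the untreated replicates, and its summits in the 6 lists fell within 19 bp. The remaining sites of the 10 began at 306224 on chromosome 3, 27471985 on chromosome 5 and 104068293 on chromosome 1. Their smaller gaps were between 2106 and 2861 kb and their folds between 3.53 and 16.2. Mean within-list percentiles of the 10 ranged from 52.8 to 96.9, so a great distance to the next shared site went with weak and strong peaks alike.

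Isolated sites were close to other shared sites in strength. The median within-list percentile of the isolated sites was 78.8, 78.5 and 68.3 in insulin replicates 1, 2 and 3 and 75.6, 67.9 and 65.9 in the untreated replicates. The remaining shared regions had 81.9, 80.8 and 69.6 after insulin and 80.1, 72.1 and 68.4 without it. The isolated sites were thus lower in 6 of 6 lists, by 2.99 ± 1.22 percentile points (SD, n = 6 libraries), with a two-sided exact sign-flip permutation p = 0.03125, the smallest that 6 libraries allow. After Benjamini-Hochberg adjustment over the 5 tests made here the exact sign-flip p was 0.15625, so the difference does not pass the threshold of 0.05. A result at 0.03125 that stands alone among 5 tests cannot pass it, so the adjusted value does not settle whether the sets differ. The 6 lists rank the same regions, so this p speaks only of how the libraries vary.

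The fold enrichment gave no such difference. Its median at isolated sites was 9.97, 9.24 and 6.48 in insulin replicates 1, 2 and 3 and 6.54, 5.10 and 5.24 in the untreated replicates. At the remaining shared regions it was 10.2, 9.30 and 6.18 after insulin and 6.48, 5.13 and 5.22 without it. The ratio was above 1 in 3 lists and below 1 in 3, between 0.977 and 1.05 (mean log2 ratio 0.0062 ± 0.035, SD, n = 6, two-sided exact sign-flip p = 0.75, adjusted 0.75). When the percentile was taken of the fold and not of −log10 q, isolated sites stood 0.416 points higher (exact sign-flip p = 0.594). The lower rank of the isolated sites was therefore seen with −log10 q and not with the fold.

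**Figure D3:**
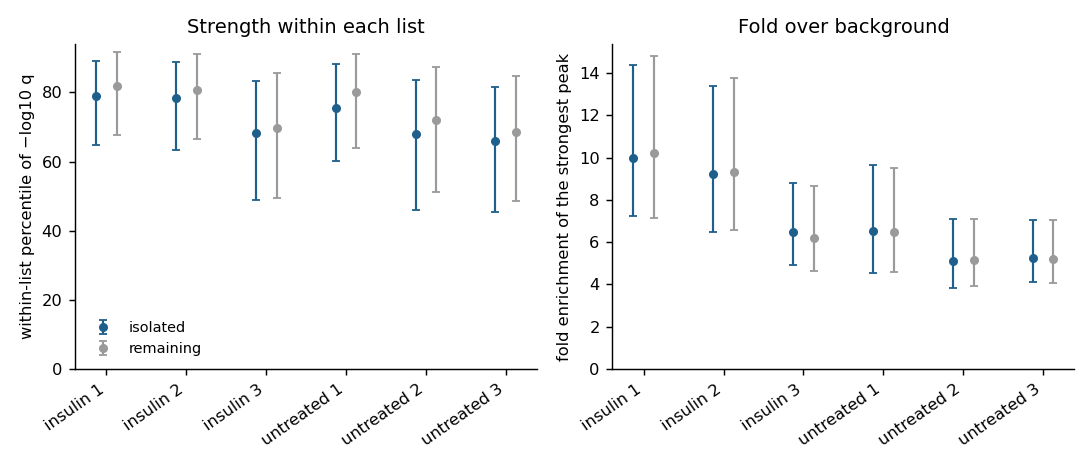
Median (point) and 25th to 75th percentile of the regions (bar) of the within-list percentile of −log10 q (left) and of the fold enrichment (right) for the isolated (blue) and remaining (grey) shared regions in each of the 6 lists. On the left the blue point is the lower of each pair, by 1.33 to 4.54 points, and on the right the points of a pair nearly coincide.

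Solving the deposited fold and −log10 p together gives the DNA fragments at each summit and the local background in fragments. The median isolated site had 53, 73 and 26 fragments in insulin replicates 1, 2 and 3 and 73.5, 44 and 26 in the untreated replicates. These medians were between 0.835 and 0.897 times those of the remaining shared regions. The background was lower too, at 4.5045, 7.14 and 2.69 fragments after insulin and 11.4, 8.14 and 3.54 without it, between 0.761 and 0.892 times that of the remaining regions. Fragments and background were thus both lower at isolated sites in 6 of 6 lists, while their ratio, the fold, was not. The part of background in the rank by −log10 q was not tested.

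Both quantities were lower at the largest gaps than at the smallest in all 6 lists. In insulin replicate 1 the median summit had 62 fragments where the smaller gap was at most 5 kb, 55 between 100 and 200 kb and 48 above 1000 kb. In untreated replicate 1 these values were 89, 79 and 67. The background in untreated replicate 1 was 12.7, 12.6 and 9.51 in the same classes. The fold at the 65 sites with more than 1000 kb was 10.8, 10.9 and 6.29 in insulin replicates 1, 2 and 3, against 10.3, 9.52 and 6.29 where the gap was at most 5 kb. The untreated replicates had 7.17, 5.67 and 5.15 against 6.61, 5.20 and 5.24. The most separated sites thus had a higher fold than the most crowded ones in 4 lists, the same in insulin replicate 3 and a lower one in untreated replicate 3, from fewer fragments in all 6. The change over the classes was not steady. The 592 sites with gaps of 200 to 500 kb had folds of 9.86, 9.08 and 6.55 in insulin replicates 1, 2 and 3. In the untreated replicates they had 6.36, 5.02 and 5.26. These folds were below those at gaps of at most 5 kb in replicates 1 and 2 of both treatments, and above them in both replicate 3 lists. All these values are descriptions, with no test.

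**Figure D4:**
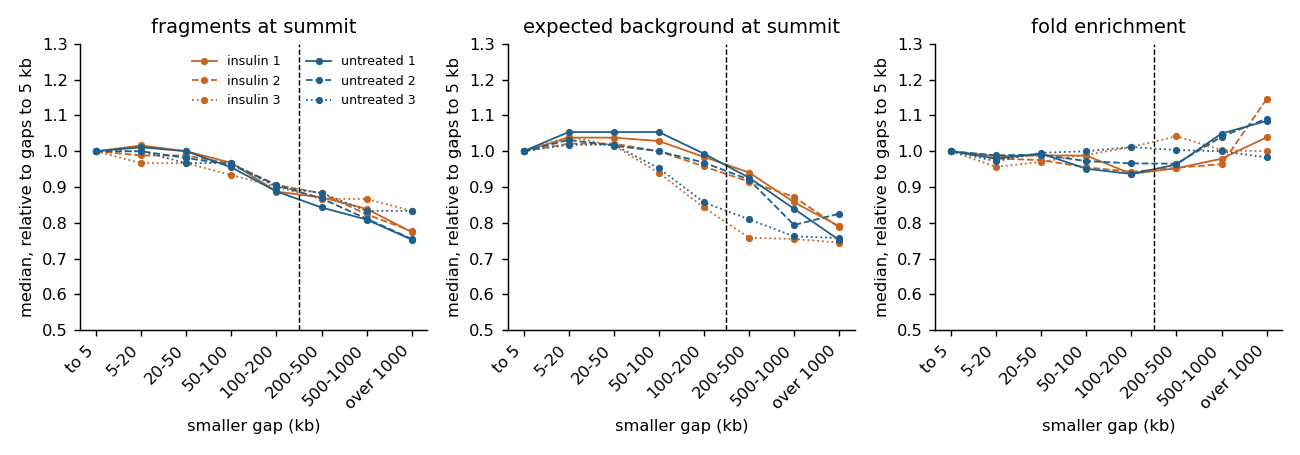
Medians of the fragments at the summit (left), the expected background (middle) and the fold (right) by class of the smaller gap, each divided by the same library's median for gaps of at most 5 kb; insulin libraries are orange, untreated libraries blue, and the dashed line marks 200 kb. Fragments and background are lower in the last class than in the first in all 6 libraries, while the fold is higher in 4 of them. In the class of 200 to 500 kb the fold is below that of the first class in replicates 1 and 2 of both treatments, and above it in both replicate 3 libraries.

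The replicate 3 libraries stood apart, as they had the shortest lists (27503 peaks after insulin and 26082 without it, against 31668 to 48208 in the other 4) and a background that often sat at the lowest value of the list. This was so at 387 isolated sites (46.1%) in insulin replicate 3 and at 386 (46.0%) in untreated replicate 3, against 23.7% and 24.8% of the remaining shared regions. In the other 4 lists it was so at 0 to 4 isolated sites. The isolated sites also lay less often on chromosomes 2, 6, 14, 16, 17 and 20, 27.0% of them against 34.9% of the remaining regions. Merged regions called in replicate 3 libraries alone were dense on all 6 of these chromosomes, at 3.07 to 8.61 per Mb against at most 1.55 on the other autosomes. These chromosomes also differed in the mean percentile over all 6 lists. Its median at the remaining shared regions was 74.8 to 78.9 there and 69.7 to 74.6 on the other autosomes, and the cause was not tested. The part of the replicate 3 libraries in the results was tested only by leaving them or these chromosomes out. Without these 6 chromosomes the percentile difference was -1.79 (exact sign-flip p = 0.0625), and without both replicate 3 libraries it was -3.53 over the same sites and -5.65 with the sites chosen again. With 4 libraries the exact p cannot go below 0.125.

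Few isolated sites were among the strongest of the genome. Of the 840, 17 (2.02%) ranked within the first 1000 peaks of all 6 lists, against 3.41% of all shared regions. The strongest was chromosome 7, 106808095 to 106810684, ranked between 2 and 4 in every list. Its folds were 122, 164 and 87.6 in insulin replicates 1, 2 and 3 and 95.3, 69.4 and 73.1 in the untreated replicates, from 320 to 1534 fragments. No region of any list lay within 200 kb of it, and its nearest shared region was 393 kb away. The second was chromosome 3, 66270984 to 66271867. It ranked between 25 and 38, its folds ran from 32.4 to 72.4, and its 6 summits agreed within 3 bp. The third, chromosome 3, 140660157 to 140661771, lay only 204.672 kb from its neighbour and had folds between 26.3 and 56.8.

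On chromosome 4 the strongest isolated sites were 69215364 to 69216290, with folds between 18.8 and 53.8 and summits within 3 bp, and 26320723 to 26322830, with folds from 18.03 up to 63.2. The site at chromosome 12, 38710108 to 38710980, had folds of 57.1, 39.5 and 32.5 after insulin and 18.8, 17.04 and 19.8 without it. Folds depend on each library's own background, so this gap is not a measure of a change. Its percentiles among shared regions were 99.2, 98.5 and 98.9 in insulin replicates 1, 2 and 3 and 97.6, 97.6 and 97.9 in the untreated replicates. The site was thus higher in every insulin library, by 1.19 points on average, near the top of the scale where little room is left. One of its gaps, the larger of which was 4534 kb, contains the longest stretch of the chromosome without a peak. The other four of the 10 strongest began at 52810414 on chromosome 8, 40439826 on chromosome 22, 19880559 on chromosome 17 and 98503306 on chromosome 15. Their mean percentiles were between 98.9 and 99.1.

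At the other end, 27 isolated sites (3.21%) were below the list median in all 6 lists, and 425 (50.6%) were above it in all 6. For the remaining shared regions these shares were 2.42% and 56.8%. The weakest site, named after its values were seen, was chromosome 12, 40498909 to 40500073, with a mean percentile of 15.01, folds between 2.31 and 4.01 and 10 to 26 fragments at its summits. The summits of its 6 peaks were spread over 776 bp.

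Widths did not differ beyond the spread of the libraries. The merged region of an isolated site had a median width of 1083.5 bp, with 796 to 1475 bp as the 25th to 75th percentile, and the widest spanned 4591 bp. For the remaining shared regions the median was 1093 bp and the widest 7417 bp. The peak of a single list was narrower, with medians of 691.5, 858.5 and 623.5 bp in insulin replicates 1, 2 and 3 and 767, 663 and 586.5 bp in the untreated replicates. Against the remaining regions the peaks were 3.92 ± 26.1 bp narrower on average (SD, n = 6), narrower in 4 lists and wider in both replicate 3 lists, with a two-sided exact sign-flip p = 0.75 (adjusted 0.75). This value depended on the replicate 3 libraries: over the same sites it was -12.4 bp without insulin replicate 3, -7.6 bp without untreated replicate 3 and -19.1 bp without both, and with the sites chosen again it was -30.6, -37.8 and -86 bp. It was 5.65 bp when regions of like strength were compared, and 2.2 bp over the same sites without insulin replicate 2. In 705 isolated sites (83.9%) each list gave a single peak, close to the 82.5% of the remaining regions.

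Summit positions were then compared between the lists. The distance of a list's summit from the median summit of the other 5 lists had a median of 21.5, 21 and 34 bp in insulin replicates 1, 2 and 3 and of 22, 26 and 38 bp in the untreated replicates. The remaining regions had 22, 21 and 32 bp after insulin and 21, 26 and 33 bp without it. The mean difference of 1.25 ± 2.04 bp (SD, n = 6) was within the spread of the libraries (two-sided exact sign-flip p = 0.25, adjusted 0.625), and the largest difference, 5 bp, was in untreated replicate 3. With a gap limit of 500 kb, which left 248 sites, summits lay 3.83 bp further apart than at the remaining regions (exact sign-flip p = 0.03125, before adjustment). At the 200 kb limit, with all 840 sites compared within classes of like strength, the difference was -0.14 bp. The sites of the 500 kb limit were not compared in that way.

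All 6 summits fell within 50 bp of each other at 149 isolated sites (17.7%) and within 100 bp at 415 (49.4%), against 20.9% and 53.5% of the remaining regions. They were spread over more than 500 bp at 80 isolated sites (9.52%), against 9.71%. Between pairs of libraries the median summit distance at isolated sites was 24 to 46 bp. The mean of these medians was 35.6 bp for the 6 pairs within a treatment and 35.3 bp for the 9 pairs across treatments. Pairs with a replicate 3 library had medians of 37 to 46 bp, and the others 24 to 30 bp. Such pairs make up unequal shares of the pairs within and across treatments, so these means are not read against each other.

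Insulin and untreated libraries were compared by the percentile of each site among the 15684 shared regions, a set that is the same in every list, since percentiles in lists of different length show no change. The mean over the 840 isolated sites was 45.8, 46.0 and 48.7 in insulin replicates 1, 2 and 3 and 45.04, 45.7 and 46.8 in the untreated replicates. The groups overlapped, and in both treatments replicate 3 was the highest. Within each same-numbered pair the insulin value was the higher, by 0.749, 0.296 and 1.90 points (exact sign-flip p = 0.25, the smallest that 3 pairs allow). The means were 46.8 ± 1.63 after insulin and 45.9 ± 0.899 without it (SD, n = 3 each), a difference of 0.981 points (two-sided exact permutation p = 0.5, adjusted 0.75, where 0.1 is the smallest value for 3 against 3). Over the same 840 sites the difference was 0.0436 without insulin replicate 3 and 0.523 without replicate 3 in both treatments. With the sites chosen again from the remaining lists it was -0.327 and -0.495. The set of shared regions that were ranked then changed too, to 17502 and 24644 regions. The sign thus depended on the sites and the ranked set together, which were not told apart. The mean insulin percentile was above the mean untreated one at 460 sites (54.8%), compared with 50.6% of the remaining regions.

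**Figure D5:**
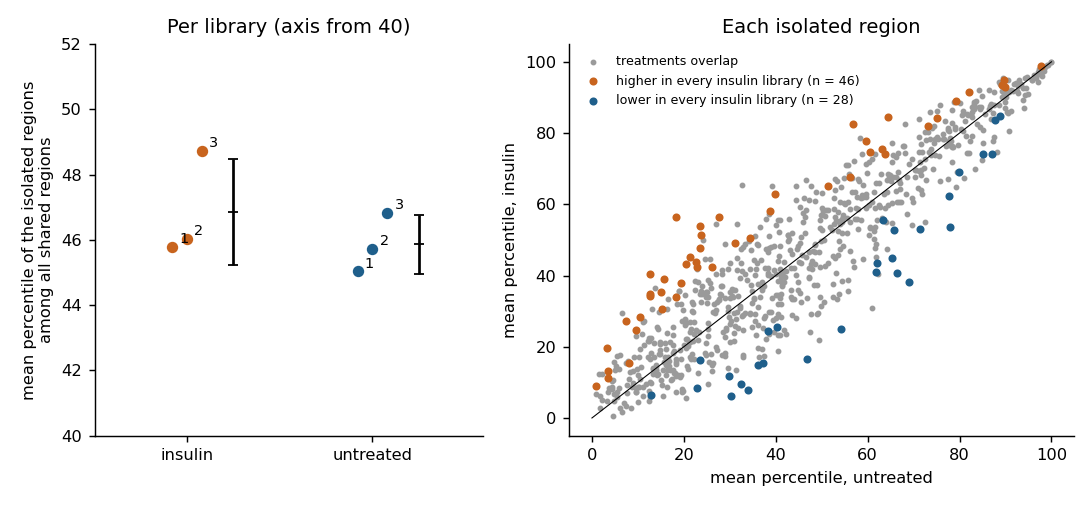
Left, mean percentile of the isolated sites among all shared regions in each library (points with replicate numbers, axis from 40), with mean and SD of 3 libraries in black; right, mean insulin against mean untreated percentile of each isolated site, with the line of equality. The insulin and untreated points overlap on the left, and on the right 46 sites (orange) and 28 sites (blue) have treatments that do not overlap.

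Of the 840 isolated sites, 46 (5.48%) had a higher percentile in every insulin library than in any untreated library, against 4.69% of all shared regions. The reverse held for 28 (3.33%), against 4.34% of all shared regions. Both shares are near those of shared regions at large. With percentiles of the fold they were 4.17% higher and 4.29% lower, against 4.18% and 3.77% of all shared regions. With 3 libraries against 3, no exact p of a single site can go below 0.1, and none is called changed. Sites of the first kind lay on 19 chromosomes and those of the second on 13, with median differences of 17.1 and -18.2 points.

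The site with the largest difference in favour of insulin was chromosome 1, 48688029 to 48689556. Its percentiles were 40.9, 61.4 and 66.6 in insulin replicates 1, 2 and 3 and 33.8, 9.95 and 10.9 in the untreated replicates, a mean difference of 38.1 points. Its summits held 51, 90 and 31 fragments after insulin and 67, 31 and 22 without it. The lowest insulin value lay close to the highest untreated value, that of replicate 1, and all 3 were far above the other two untreated values. Chromosome 5, 76325794 to 76326647, followed with 44.0, 54.5 and 62.9 after insulin and 35.03, 14.8 and 20.7 without it. Sites starting at 181472104 on chromosome 2, 79080913 on chromosome 7 and 119356086 on chromosome 8 had mean differences of 28.8, 27.7 and 27.5 points.

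In the other direction, chromosome 18, 39748332 to 39749035, had percentiles of 22.4, 52.8 and 39.7 in insulin replicates 1, 2 and 3 and of 60.6, 76.2 and 70.4 in the untreated replicates, a mean difference of -30.7 points. Its folds were 9.07, 15.7 and 6.23 after insulin and 11.2, 10.9 and 7.52 without it, so the fold in insulin replicate 2 was the highest of the 6 although its percentile was below those of all 3 untreated libraries. Chromosome 11, 58909746 to 58910936, had 14.1, 30.6 and 5.38 after insulin and 44.5, 42.1 and 53.8 without it. Mean differences were -29.1 at chromosome 9, 76640181 to 76641257, -26.2 at chromosome 8, 91655342 to 91655975, and -25.6 at chromosome 3, 103695699 to 103696539. Fragment numbers at these 5 sites lay between 13 and 88, which bounds how finely a percentile can be read.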

How the data were processed

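Per the submitters' processing notes, fastp, Bowtie2, SAMtools and MACS2 were used with build hg19. For the versions, the roles of the tools, the control and the threshold, nothing is given in the sources used here. The authors deposited 1 list per library, since each list's peak names carry one library's name, and the 6 inputs were not analysed here. The deposited fold is a linear ratio over local background. The deposited −log10 p (lowest 3.00 to 3.01 in each list) and −log10 q depend on depth, and total depth is unknown. The deposited score lay within 1 of 10 times the −log10 p.

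Lists were merged at 1 bp, a region took each list's strongest peak by −log10 q, and gaps run edge to edge in 1-based hg19 coordinates. Sites named were the 10 strongest, the 10 most isolated, the 3 on each side of the limit and up to 5 per direction of treatment. Fragments (k) and background (b) solve fold = (k + 1)/(b + 1) with a Poisson upper tail; a whole k met both within 0.0005 (in proportion above 10) for 100% of 223205 peaks. Differences between sets were tested over libraries by exact sign-flip and between treatments by exact permutation tests. The members and tests were chosen with earlier results of these data known. Deviations of same-numbered libraries from their treatment mean correlated at 0.123, 0.301 and 0.303 over the shared regions, each above 0.1, so replicate numbers were taken as pairs. Those of differently numbered libraries correlated at -0.319 to 0.0898, the highest being insulin replicate 2 with untreated replicate 1. Alternatives changed the gap limit, the libraries (sites chosen again or kept), the lists, the peaks kept, the rank measure, the chromosomes and the strata. The code was tested on simulated data. Promoter shares and forkhead motifs, planned for an hg19 reference, were not computed. Python 3.11.15, numpy 2.4.6, pandas 2.3.3, scipy 1.17.1 and matplotlib 3.10.9 were used.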

Additional observations from a re-analysis of the deposited data

Results flagged for a closer look

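Chromosome X was outside the rule for the autosomes, and the same distance rule found 52 isolated sites among its 180 shared regions (28.9%), a larger share than on any autosome (the highest was 11.4%, on chromosome 5). Their median within-list percentile was 81.8, 83.6 and 62.8 in insulin replicates 1, 2 and 3 and 78.5, 72.3 and 48.6 in the untreated replicates. The distance rule makes isolated sites more common where shared regions are sparse, and its part in this share was not tested. The number of shared regions per Mb was not computed for chromosome X, nor were percentiles of its remaining shared regions. The result is listed because these peaks entered no comparison above.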

How the results depend on the processing

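The number of isolated sites was 1980 with a gap limit of 100 kb, 248 with 500 kb and 513 with a gap of 50 kb to any merged region, as the rule itself brings about, and stayed within 1.5 times of 840 in the other 10 alternatives. The percentile difference of -2.99 kept its sign except with percentiles of the fold, where it was 0.416. When each library was omitted in turn it lay between -4.22 and -2.69 with the sites chosen again. Over the same sites it was -2.97, -3.12 and -3.32 without insulin replicates 1, 2 and 3, and -2.67, -2.74 and -3.09 without those of the untreated cells (exact p = 0.0625 in each case, the smallest that 5 libraries allow). It was -1.67 with −log10 q of at least 5, -2.25 with lists of equal length, -1.31 with the 50 kb gap to any region, -1.79 without chromosomes 2, 6, 14, 16, 17 and 20, and -5.65 without replicate 3 in both treatments (-3.53 over the same sites). In these the exact p was at least 0.0625. Omitting replicate 3 in both treatments and keeping the same sites were chosen after seeing the data. The log2 fold ratio of 0.0062 was -0.013 at 100 kb, 0.057 at 500 kb, 0.031 with the gap to any region (exact p = 0.03125 for the last 2), and between -0.014 and 0.012 with each library left out (-0.0066 to 0.014 over the same sites), negative there only without insulin replicate 3. Over the same sites it was -0.0093 without replicate 3 in both treatments. The width difference of -3.92 bp was 5.65 bp within deciles of strength, 13.3 bp without the 6 chromosomes, -45 bp at 500 kb and -86 bp without replicate 3 in both treatments (-19.1 bp over the same sites). With each library left out it was -37.8 to 0 bp (-12.4 to 2.2 bp over the same sites). The summit difference was 1.33 bp at 100 kb and 3.83 bp at 500 kb (exact p = 0.03125 each), -0.14 within deciles of strength and -2 (exact p = 0.125) without replicate 3 in both treatments. The treatment difference of 0.981 lay between -0.327 (without insulin replicate 3) and 1.39 when each library was omitted, and was -0.495 without replicate 3 in both. Over the same sites these were 0.0436 to 1.51, and 0.523. With the replicate block it stayed 0.981 (exact sign-flip p = 0.25, the smallest for 3 pairs), and the block changed no call. The share of sites higher in every insulin library was 8.55% to 13.3% with each library left out and 17.8% without replicate 3 in both, against 8.15% to 11.3% and 17.6% of all shared regions. The share lower was 5.98% to 9.06% and 17.1%, against 7.56% to 9.86% and 16.0%. Fewer libraries make that rule easier to meet. Apart from that and the rule's own effect, the causes of these shifts were not tested. Total depth is unknown, and its effect on these results was not tested.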

Other observations

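Peaks outside the shared regions were found around isolated sites in every library. Within 200 kb of an isolated site there were 2405, 2194 and 921 such peaks in insulin replicates 1, 2 and 3 and 2289, 1155 and 907 in the untreated replicates. Of all peaks outside shared regions these made up 8.16%, 7.89% and 9.02% after insulin and 8.55%, 8.08% and 9.97% without it. The share of the genome within 200 kb of an isolated site was not computed, so neither a surplus nor a lack of peaks is read from these shares. The share was highest in the replicate 3 list of each treatment. An isolated site's percentile among shared regions varied over the 6 lists by a median of 29.9 points from lowest to highest, compared with 29.1 points at the remaining shared regions.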
